A study of Mus musculus with 2 samples.

Results

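Interferon-responding macrophages were taken as the 1000 base cells with the highest summed signal of 5 interferon-induced genes, Ifit1, Ifit2, Ifit3, Rsad2 and Cmpk2, out of 9655 base cells in 13837 barcodes. A base cell had at least 200 detected genes, at most 10% mitochondrial reads counted by unique molecular identifier (UMI), fewer than 2 UMIs of the mCherry construct and at least 1 UMI of Csf1r, the receptor of the macrophage growth factor CSF1. Each base cell was scored by the mean of log1p(UMIs per 10000) over the 5 genes, and both libraries were ranked together. Of the 1000 members, 279 came from adult and 721 from young mice, and the other base cells numbered 3986 in the adult and 4669 in the young library. The members were chosen by the measured levels of these 5 genes, so every comparison of members with the other base cells describes the choice and carries no test.

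The cells were sorted for mCherry, a red fluorescent protein, out of tumours of mice 24 weeks old (adult) and 4 weeks old (young), both labelled d7, a tag that the labels do not explain. Tumours were pooled within each age before a droplet library was made, so there is 1 library per age, no replicate and no test. Differences by age cannot be told apart from those of the pool, the sort, the library or the sequencing run. The sources used here do not give the strain, the tumour type or the cells that carried the mCherry gene, and the sort limits all cells to those that held mCherry signal.

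Type I interferons, among them interferon beta, bind a receptor built of IFNAR1 and IFNAR2, which activates the kinases JAK1 and TYK2. These phosphorylate STAT2, which joins IRF9 in a complex that binds interferon-stimulated response elements in the promoters of target genes. In tumours, macrophages with this programme are known as sources of chemokines that attract T cells and monocytes.

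The promoters of 4 interferon targets, of the chemokine gene Cxcl10 and of the ligand gene Ifnb1 are shown for their matches to 2 known kinds of site, the response element and that of NF-kB, a factor that acts on the Ifnb1 promoter. All 4 targets shown held a response element match. Of the 5 genes that chose the members 3 held one and Ifit2 and Cmpk2 did not, nor did Oasl1, Slfn4, Isg20 or Irf7. Each line gives the 250 bases before the RefSeq start, 5′ to 3′ on the gene's own strand, from the RefSeq annotation of GRCm38.p6, the mm10 build that the files use. Capitals mark matches to the response element core (GAAA, any 2 bases, GAAA) and to an NF-kB-type site (GGGA, any 2 bases, TTCC), each searched on both strands.
Ifit1: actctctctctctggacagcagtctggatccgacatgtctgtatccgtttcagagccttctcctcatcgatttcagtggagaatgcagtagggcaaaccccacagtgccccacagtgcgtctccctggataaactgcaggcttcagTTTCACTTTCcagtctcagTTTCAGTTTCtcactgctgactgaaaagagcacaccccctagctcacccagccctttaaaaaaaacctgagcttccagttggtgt
Ifit3: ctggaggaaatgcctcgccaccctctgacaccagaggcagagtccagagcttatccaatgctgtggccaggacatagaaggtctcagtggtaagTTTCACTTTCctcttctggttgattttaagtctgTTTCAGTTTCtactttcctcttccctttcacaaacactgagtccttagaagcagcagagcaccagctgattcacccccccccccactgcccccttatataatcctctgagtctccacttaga
Rsad2: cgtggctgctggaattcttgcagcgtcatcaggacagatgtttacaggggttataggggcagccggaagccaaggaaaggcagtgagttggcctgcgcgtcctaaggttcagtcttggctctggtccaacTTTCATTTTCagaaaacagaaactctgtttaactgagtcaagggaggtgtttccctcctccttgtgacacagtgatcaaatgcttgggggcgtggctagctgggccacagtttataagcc
Isg15: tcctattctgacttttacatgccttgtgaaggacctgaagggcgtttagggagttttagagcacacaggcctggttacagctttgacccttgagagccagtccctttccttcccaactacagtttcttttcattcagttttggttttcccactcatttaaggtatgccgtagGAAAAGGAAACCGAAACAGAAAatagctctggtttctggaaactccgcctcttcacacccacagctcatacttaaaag
Cxcl10: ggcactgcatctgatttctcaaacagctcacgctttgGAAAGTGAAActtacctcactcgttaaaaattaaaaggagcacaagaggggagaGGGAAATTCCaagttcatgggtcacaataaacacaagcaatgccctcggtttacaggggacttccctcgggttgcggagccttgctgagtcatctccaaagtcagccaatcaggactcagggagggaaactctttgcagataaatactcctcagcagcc
Ifnb1: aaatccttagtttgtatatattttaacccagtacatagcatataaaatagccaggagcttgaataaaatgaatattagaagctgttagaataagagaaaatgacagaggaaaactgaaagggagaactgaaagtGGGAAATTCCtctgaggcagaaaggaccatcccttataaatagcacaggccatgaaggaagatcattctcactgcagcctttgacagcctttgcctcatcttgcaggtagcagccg
They lie at chr19:34640639-34640888 (plus strand), chr19:34583279-34583528 (plus), chr12:26456453-26456702 (minus), chr4:156200819-156201068 (minus), chr5:92348890-92349139 (minus) and chr4:88522795-88523044 (minus). Ifit1 held response element matches that began 104 and 85 bases before the start, Ifit3 at 156 and 122 bases, and Rsad2 at 120 bases. Isg15 held 3 that overlap each other, at 78, 72 and 66 bases. Cxcl10 held 1 at 213 bases and an NF-kB-type match at 159 bases. Ifnb1 held no response element match in this window but an NF-kB-type match at 116 bases, with the same 10 letters, GGGAAATTCC, as in Cxcl10. The search allowed exactly 2 bases between the GAAA runs. The stretch gaaaactgaaa in the Ifnb1 promoter, with a wider gap, was therefore not counted, so the missing match does not show that related sites are absent. Over all 32851 RefSeq promoters of this length, 2.98% held a response element match and 1.21% an NF-kB-type match. Of the 57 genes at least 2-fold higher in members (described below for the whole transcriptome), 48 were in the table, and 20 of these (41.7%) held a response element match, against 111 of 2020 (5.5%) of the compared genes. The shares of the NF-kB-type match were 4 of 48 (8.33%) against 36 of 2020 (1.78%). A match is a run of letters and not a shown binding site.

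The adult library held 6279 barcodes and 70988070 UMIs and the young library 7558 barcodes and 84862471 UMIs. Members had medians of 8972 UMIs in the adult and 9276 in the young library, and the other base cells medians of 10167.5 in the adult and 10515 in the young library. The libraries shared 111 barcode sequences, of which 2 fell on adult and 6 on young members. No doublet caller was run. Levels below are UMIs per 1000000 (CPM) of all UMIs summed over the named cells of 1 library. All intervals are at 95% and cover counting error only, since cells are not replicates and UMIs gather in single cells. They are exact Poisson for levels, exact binomial for shares and conditional binomial for ratios of levels. For the ratio of shares and the ratios of ratios they are normal approximations on the log scale.

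Members made up 6.54% of adult base cells (279 of 4265, interval 5.82 to 7.33) and 13.4% of young base cells (721 of 5390, 12.5 to 14.3), a ratio of 0.489 (0.428 to 0.558) that has no replicate check. No UMI of any of the 5 genes was found in 42.6% of adult base cells (41.1 to 44.1) and in 20.4% of young ones (19.4 to 21.5). The adult library thus held a larger share of cells without the signal and a smaller share with much of it. With each cell thinned to 3000 UMIs, which left out 137 adult and 228 young base cells, members were 7.34% of adult and 13.5% of young base cells. Shallow cells entered more often, with 8.72% of adult and 17.8% of young base cells in the lowest quartile by UMIs, against 4.97% of adult and 10.2% of young base cells in the highest quartile. The part of depth in the other results was not tested beyond the thinned values.

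**Figure D1:**
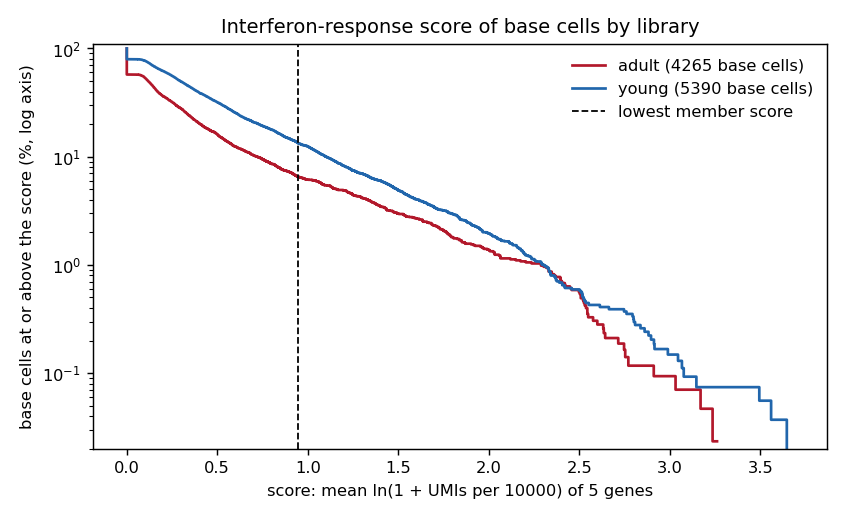
Share of base cells (%, log axis) whose score reaches the value on the x axis (mean log1p UMIs per 10000 of 5 genes), for the adult and the young library, with a dashed line at the lowest member score. At the dashed line the curves stand at 6.54% of adult and 13.4% of young base cells, and they come together well above it.

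The cutoff passes through a continuous range and not through a gap. The lowest member had a score of 0.945088 and the highest cell outside one of 0.94501, and the 10 lowest members averaged 0.948635 and the 10 cells below them 0.942946. The highest score was 3.69, and the median was 1.43 in adult and 1.33 in young members, against 0.102 in the other adult and 0.244 in the other young base cells. All 5 genes were detected in 490 members, 4 in 353, 3 in 136 and 2 in 21. The 5 genes together gave a lowest, median and highest number of 4, 23 and 160 UMIs in adult members and of 2, 20 and 211 in young members, so some members entered on very few molecules.

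All 5 genes that chose the members encode products that restrict viruses or are induced with them. Rsad2 encodes viperin, which makes a chain-terminating nucleotide from CTP, and Cmpk2 (ENSMUSG00000020638, chromosome 12, 26469204 to 26479837), a mitochondrial nucleotide kinase, lies beside it on chromosome 12. Rsad2 stood at 1392 CPM in adult members against 84.5 CPM in the other adult base cells, and 1314 CPM in young members against 171 CPM in the other young base cells. Cmpk2 stood at 289 CPM in adult members against 9.55 CPM in the other adult base cells, and 182 CPM in young members against 12.96 CPM in the other young base cells. Ifit1, Ifit2 and Ifit3, whose proteins bind viral RNA or one another, lie together on chromosome 19 between 34550694 and 34650009. Ifit1 stood at 558 CPM in adult members against 22.4 CPM in the other adult base cells, and 467 CPM in young members against 37.7 CPM in the other young base cells. Ifit2 stood at 347 CPM in adult members against 16.1 CPM in other adult cells, and 298 CPM in young members against 24.3 CPM in other young cells. Ifit3 stood at 529.6 CPM in adult members against 24.2 CPM in other adult cells, and 528 CPM in young members against 47.4 CPM in other young cells. The other base cells were therefore not without these transcripts, and in each of the 5 genes the young other cells stood above the adult ones.

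Outside these 5 genes, 57 of 2528 compared genes (2.25%) were at least 2-fold higher in members in both libraries and none (0) was at least 2-fold lower in both. A gene was compared where any of its 4 sums reached 50 CPM, and folds use log2 levels after adding 5 CPM. Of the 57 genes, 42 belong to lists of interferon genes and 10 to no list. The share of listed genes among all 2528 compared genes was not counted. The lists were chosen with earlier results of these data known, so these counts describe the lists and carry no test. At a looser limit, a ratio of at least 1.5 with an interval that excludes 1 in both libraries, 266 of 6670 genes (3.99%) were higher in members and 75 (1.12%) lower. This limit, applied where any sum reached 10 CPM, is the one used for all lists below. Over all measured features the median log2 ratio of members over other cells was -0.07 in the adult and -0.04 in the young library.

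The 15 genes furthest up were led by relatives and neighbours of the genes that chose the cells. Ifit3b (ENSMUSG00000062488, chromosome 19, 34607970 to 34613401), a near copy of Ifit3 with which reads may have been exchanged, stood at 81.5 CPM in adult members against 2.79 CPM in the other adult base cells, and 67.5 CPM in young members against 3.58 CPM in the other young base cells. Ifit1bl1, which lies between Ifit3 and Ifit3b, stood at 75.2 CPM in adult members against 2.18 CPM in other adult cells, and 56.6 CPM in young members against 4.54 CPM in other young cells. Among genes elsewhere in the genome, Mx1 (ENSMUSG00000000386, chromosome 16, 97447035 to 97462907), an interferon-induced dynamin-like GTPase whose mouse form acts against influenza virus, stood at 176 CPM in adult members against 15.99 CPM in the other adult base cells, and 148 CPM in young members against 23.03 CPM in the other young base cells. That is 11.0-fold (9.796 to 12.4) in the adult library and 6.42-fold (5.91 to 6.98) in the young one. Usp18, Slfn4, Ifi208, Oasl1, Isg15, Cxcl10, Isg20, Slfn5, Il15, Ifi209 and Ifnb1 are described by role below. The remaining gene, Gm13822, stood at 41.5 CPM in adult members against 7.80 CPM in other adult cells, and 56.5 CPM in young members against 14.3 CPM in other young cells and partly overlaps Oasl1 on the opposite strand, so without a stated counting strand its reads cannot be told apart from those of Oasl1.

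**Figure D2:**
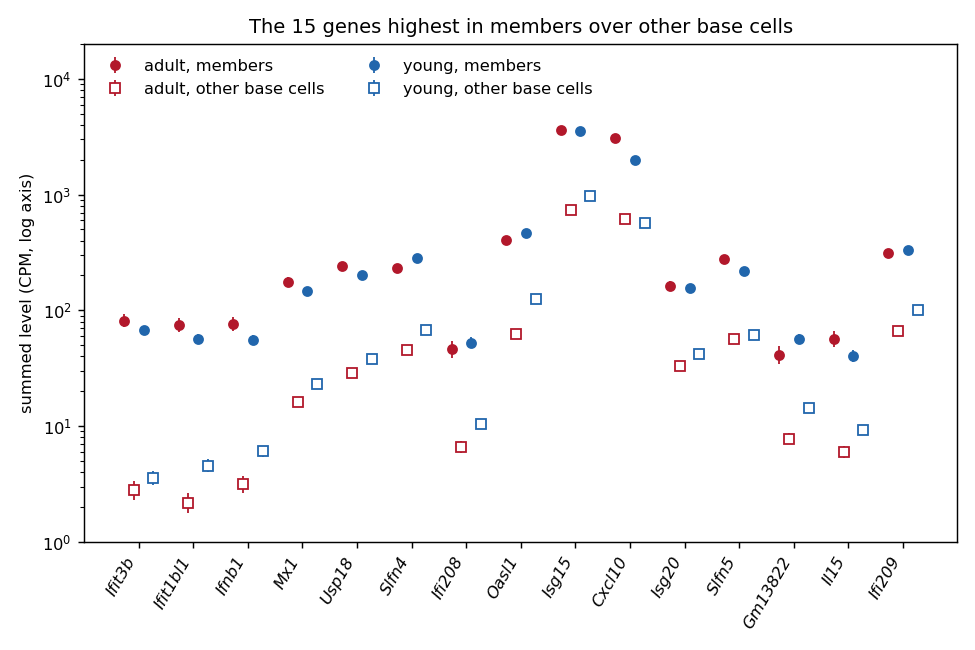
Level (CPM, log axis) of the 15 genes furthest up in members, each in adult members, adult other base cells, young members and young other base cells, with exact Poisson intervals as bars. In each gene both member points lie above both points of the other base cells, with 67.5 CPM in young members against 3.58 CPM in the other young base cells for Ifit3b, and 3612 CPM in adult members against 734 CPM in the other adult base cells for Isg15.

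Of the ligands that start the programme, interferon beta was the one measured at 10 CPM or more. Ifnb1 (ENSMUSG00000048806, chromosome 4, 88522025 to 88522774) stood at 76.3 CPM in adult members against 3.15 CPM in the other adult base cells, and 55.5 CPM in young members against 6.07 CPM in the other young base cells, 24.2-fold (19.5 to 30.1) in the adult library and 9.14-fold (7.86 to 10.6) in the young one. Members are 6.54% of adult and 13.4% of young base cells but held 61.0% of the Ifnb1 UMIs of adult and 55.6% of those of young base cells. An Ifnb1 UMI was found in 23 of 279 adult members (8.24%, 5.30 to 12.1) and 72 of 721 young members (9.99%, 7.90 to 12.4), against 1.58% of the other adult and 3.26% of the other young base cells. Most members thus carried no Ifnb1 UMI. Cells with 10 or more mCherry UMIs and no Csf1r UMI, which are deeper (medians of 25672 UMIs in the adult and 22338 in the young library), carried an Ifnb1 UMI in 0.993% of adult and 2.65% of young cases. Thinned to 3000 UMIs per cell, the shares were 6.99% of adult and 6.65% of young members, against 0.908% of the other adult and 1.34% of the other young base cells. In the thinned mCherry-rich cells they were 0 of 289 in the adult (upper bound 1.27%) and 0.952% in the young library. As a whole, the thinned share in the other base cells lay within the counting intervals of this background, and that in members lay above them. Among the other base cells, 7 adult and 10 young cells held 5 or more Ifnb1 UMIs, against 0 adult and 1 young mCherry-rich cells.

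Single cells carried much of the Ifnb1 signal. In the adult library, 9 members with at least 5 UMIs held 191 of 217 UMIs and 1 cell held 78. In the young library, 22 such members held 307 of 395 UMIs and 1 cell held 84. Without the 5 members with most Ifnb1 UMIs, a step chosen after these values were seen, the level was 18.3 CPM in adult and 31.2 CPM in young members, against 3.15 CPM in the other adult and 6.07 CPM in the other young base cells. Of the remaining 20 ligand genes, Ifna2 had 5 UMIs in adult members and 15 in young members, Ifna4 had 2 and Ifna16 had 7 in young members, and Ifng, the type II interferon, had 0 UMIs in adult and 20 in young members. Of the 21 ligand genes, 16 had no UMI in any member.

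Of 8 measured receptor chains and kinases that read interferons, 0 were higher and 0 lower, with a median log2 ratio of 0.14 in the adult and 0.14 in the young library. Ifnar1 stood at 54.5 CPM in adult members against 49.3 CPM in the other adult base cells, and 62.0 CPM in young members against 48.9 CPM in the other young base cells. Ifnar2, the other chain, stood at 115 CPM in adult members against 123 CPM in other adult cells, and 155 CPM in young members against 135 CPM in other young cells. The kinase gene Jak1 stood at 69.2 CPM in adult members against 62.2 CPM in other adult cells, and 77.0 CPM in young members against 72.2 CPM in other young cells. Ifngr1, a chain of the interferon gamma receptor, stood at 48.1 CPM in adult members against 74.6 CPM in other adult cells, and 56.2 CPM in young members against 72.4 CPM in other young cells.

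Of 12 measured transcription factors of the pathway, Stat2 and Irf7 were higher and none (0) lower, with a median log2 ratio of 0.36 in the adult and 0.30 in the young library. Irf7 (ENSMUSG00000025498, chromosome 7, 141262706 to 141266481), which drives interferon genes and is itself induced by interferon, stood at 1117 CPM in adult members against 443 CPM in the other adult base cells, and 1392 CPM in young members against 842 CPM in the other young base cells. Per cell, the lowest, median and highest values were 0, 8.93 and 136 UMIs per 10000 in adult and 0, 13.2 and 57.6 in young members. Stat2 stood at 101 CPM in adult members against 40.2 CPM in other adult cells, and 116 CPM in young members against 49.8 CPM in other young cells, 2.4998-fold (2.20 to 2.83) in the adult library and 2.33-fold (2.15 to 2.52) in the young one. Irf9, which joins it in the complex, stood at 47.1 CPM in adult members against 33.7 CPM in other adult cells, and 55.2 CPM in young members against 42.5 CPM in other young cells. Irf1, which interferon gamma induces most, stood at 235 CPM in adult members against 238 CPM in other adult cells, and 323 CPM in young members against 281 CPM in other young cells. The 3 subunits of the complex thus differed in whether they reached the limit, and only Stat2 of them did.

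Genes for antiviral effectors made up the largest group, and 46 of 53 measured members of the list were higher and none (0) lower. Their median log2 ratio was 1.36 in the adult and 1.05 in the young library. Isg15 (ENSMUSG00000035692, chromosome 4, 156199424 to 156200818), a ubiquitin-like protein joined to other proteins or secreted, was the most abundant of the 15 leading genes. Isg15 stood at 3612 CPM in adult members against 734 CPM in the other adult base cells, and 3512 CPM in young members against 976 CPM in the other young base cells, 4.92-fold (4.82 to 5.03) in the adult library and 3.60-fold (3.54 to 3.65) in the young one. Per cell, the lowest, median and highest values were 0, 35.9 and 156 UMIs per 10000 in adult and 0, 32.5 and 181 in young members. Thinned to 3000 UMIs, an Isg15 UMI was found in 98.5% of adult and 99.4% of young members, against 72.7% of the other adult and 81.4% of the other young base cells. In mCherry-rich cells without Csf1r these shares were 16.6% in the adult and 31.4% in the young library. Unlike Ifnb1, Isg15 was spread over nearly all members.

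Several enzymes of this list were higher. Oasl1, which in mouse limits translation of Irf7, stood at 406 CPM in adult members against 62.6 CPM in the other adult base cells, and 470.3 CPM in young members against 125 CPM in the other young base cells. Of the oligoadenylate synthetases, which make the activator of RNase L, Oas3 stood at 109 CPM in adult members against 32.6 CPM in other adult cells, and 117 CPM in young members against 54.3 CPM in other young cells. Oas2 stood at 36.5 CPM in adult members against 13.7 CPM in other adult cells, and 36.7 CPM in young members against 15.1 CPM in other young cells. Isg20, an exonuclease, stood at 162 CPM in adult members against 33.1 CPM in other adult cells, and 156 CPM in young members against 42.2 CPM in other young cells. Of the Schlafen genes, which restrict translation or growth, Slfn4 stood at 234 CPM in adult members against 45.6 CPM in other adult cells, and 285 CPM in young members against 67.7 CPM in other young cells. Slfn5 stood at 279 CPM in adult members against 57.1 CPM in other adult cells, and 219.8 CPM in young members against 61.2 CPM in other young cells. Eif2ak2, the RNA-dependent kinase PKR, stood at 65.0 CPM in adult members against 25.8 CPM in other adult cells, and 65.9 CPM in young members against 27.05 CPM in other young cells. Genes of nuclear body proteins were higher too, Daxx by 4.34-fold in the adult and 3.23-fold in the young library and Pml by 3.71-fold in the adult and 2.55-fold in the young library.

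The 7 antiviral genes that missed the limit included abundant ones. Ifitm3, which blocks virus entry at endosomes, stood at 5509 CPM in adult members against 3618 CPM in the other adult base cells, and 6599.8 CPM in young members against 5523 CPM in the other young base cells. Ly6e stood at 1930.2 CPM in adult members against 1582 CPM in other adult cells, and 2208 CPM in young members against 1902 CPM in other young cells. Bst2, the membrane tether tetherin, stood at 981 CPM in adult members against 611 CPM in other adult cells, and 1179.5 CPM in young members against 812 CPM in other young cells. Samhd1, Slfn2, Parp10 and Lgals3bp also missed it. Ifitm3, Ly6e and Bst2 were thus abundant in both cell sets.

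The p200 family of DNA-binding proteins, a cluster on chromosome 1, was higher in all 10 of 10 measured members, with a median log2 ratio of 1.91 in the adult and 1.35 in the young library. Ifi208 stood at 46.0 CPM in adult members against 6.65 CPM in the other adult base cells, and 52.7 CPM in young members against 10.3 CPM in the other young base cells. Ifi209 stood at 316 CPM in adult members against 65.9 CPM in other adult cells, and 329 CPM in young members against 101 CPM in other young cells. Ifi204, an innate DNA sensor in mouse, stood at 712 CPM in adult members against 248 CPM in other adult cells, and 696 CPM in young members against 338 CPM in other young cells. Members of this family are close paralogs, and their counts are uncertain where reads were shared.

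Of the interferon-inducible GTPases, which attack the vacuoles of intracellular pathogens, 10 of 15 measured genes were higher and none (0) lower, with a median log2 ratio of 0.92 in the adult and 0.65 in the young library. Ifi47 stood at 348 CPM in adult members against 148 CPM in the other adult base cells, and 345 CPM in young members against 182 CPM in the other young base cells. Gbp5 stood at 101 CPM in adult members against 41.0 CPM in other adult cells, and 100.2 CPM in young members against 50.7 CPM in other young cells. Gbp2, the most abundant of the family, stood at 1503 CPM in adult members against 949.8 CPM in other adult cells, and 1248 CPM in young members against 1160.1 CPM in other young cells and missed the limit.

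Among 16 measured genes for nucleic acid sensors and their adaptors, 6 were higher and none (0) lower, with a median log2 ratio of 0.72 in the adult and 0.45 in the young library. All 3 RIG-I-like helicases were among them, namely Ddx58, Ifih1 and Dhx58. Ddx58, which encodes RIG-I, stood at 65.0 CPM in adult members against 14.5 CPM in the other adult base cells, and 56.4 CPM in young members against 16.7 CPM in the other young base cells. Ifih1, which encodes MDA5, stood at 113 CPM in adult members against 28.8 CPM in other adult cells, and 107 CPM in young members against 35.3 CPM in other young cells. Mb21d1, the DNA sensor cGAS, stood at 15.5 CPM in adult members against 5.24 CPM in other adult cells, and 11.2 CPM in young members against 5.42 CPM in other young cells. Ddx60 stood at 26.4 CPM in adult members against 5.92 CPM in other adult cells, and 32.3 CPM in young members against 11.2 CPM in other young cells. The RNA receptor gene Tlr7 stood at 18.3 CPM in adult members against 9.03 CPM in other adult cells, and 29.8 CPM in young members against 15.8 CPM in other young cells. The adaptor gene Tmem173, which encodes STING, stood at 77.3 CPM in adult members against 71.7 CPM in other adult cells, and 61.6 CPM in young members against 66.9 CPM in other young cells. The kinase gene Tbk1 stood at 32.7 CPM in adult members against 29.7 CPM in other adult cells, and 44.1 CPM in young members against 36.4 CPM in other young cells. Neither Tmem173 nor Tbk1 passed the limit.

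Of 10 measured negative regulators, Usp18, Socs1 and Trim21 were higher and none (0) lower, with a median log2 ratio of 0.17 in the adult and 0.29 in the young library. Usp18 (ENSMUSG00000030107, chromosome 6, 121245906 to 121270917), which removes ISG15 and blocks signalling at IFNAR2, stood at 240.0 CPM in adult members against 28.9 CPM in the other adult base cells, and 203 CPM in young members against 38.2 CPM in the other young base cells. That is 8.30-fold (7.56 to 9.12) in the adult library and 5.31-fold (4.96 to 5.69) in the young one. Socs1, an inhibitor of JAK kinases, stood at 160.2 CPM in adult members against 87.2 CPM in other adult cells, and 172 CPM in young members against 88.8 CPM in other young cells. Its relative Socs3 stood at 302 CPM in adult members against 317 CPM in other adult cells, and 258 CPM in young members against 276 CPM in other young cells.

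Genes known mainly as targets of interferon gamma had lower median ratios than the antiviral effectors in both libraries. Of 14 measured, 4 were higher (Serpina3g, Ccl5, Cd40 and Gch1) and 1 lower, Ciita, the master regulator of MHC class II. Over all features, 3.99% were higher and 1.12% lower. The list had a median log2 ratio of 0.14 in the adult and -0.15 in the young library. The call of Ccl5 rested on few cells, as given below with the chemokines. Ciita stood at 29.2 CPM in adult members against 45.9 CPM in the other adult base cells, and 16.4 CPM in young members against 28.2 CPM in the other young base cells. The MHC class II genes H2-Ab1 and Cd74 missed the limit. H2-Ab1 stood at 3443 CPM in adult members against 4473 CPM in other adult cells, and 2583 CPM in young members against 3186 CPM in other young cells. Cd74 stood at 9028 CPM in adult members against 11534 CPM in other adult cells, and 7324 CPM in young members against 8947 CPM in other young cells. Cxcl9 stood at 492 CPM in adult members against 370.5 CPM in other adult cells, and 265 CPM in young members against 338 CPM in other young cells, above the other cells in the adult library and below them in the young one. Of 21 measured genes for MHC class I presentation, 0 were higher and 0 lower, with a median of 0.18 in the adult and 0.15 in the young library. H2-K1 stood at 1618 CPM in adult members against 1531 CPM in other adult cells, and 2388 CPM in young members against 2079.9 CPM in other young cells. Tap1 stood at 364 CPM in adult members against 291 CPM in other adult cells, and 376 CPM in young members against 350.3 CPM in other young cells.

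Chemokines of members fell into genes above and genes below the other cells, with 8 of 19 measured higher and 2 lower and a median log2 ratio of 0.40 in the adult and 0.21 in the young library. Cxcl10 (ENSMUSG00000034855, chromosome 5, 92346638 to 92348889), a ligand of CXCR3 on T cells, stood at 3099 CPM in adult members against 614 CPM in the other adult base cells, and 1999 CPM in young members against 563 CPM in the other young base cells, 5.05-fold (4.93 to 5.17) in the adult library and 3.55-fold (3.48 to 3.62) in the young one. Per cell, the lowest, median and highest values were 0, 23.9 and 206 UMIs per 10000 in adult and 0, 9.59 and 237 in young members. Its promoter was the one of those printed with both kinds of match. The monocyte-attracting chemokine genes Ccl2, Ccl7, Ccl8 and Ccl12 were all higher. Ccl2 stood at 3238 CPM in adult members against 1289 CPM in other adult cells, and 1732 CPM in young members against 956 CPM in other young cells. Ccl7 stood at 2326 CPM in adult members against 853 CPM in other adult cells, and 1342 CPM in young members against 727 CPM in other young cells. Ccl12 stood at 1836 CPM in adult members against 718 CPM in other adult cells, and 1374 CPM in young members against 770.1 CPM in other young cells. Ccl8 stood at 356 CPM in adult members against 97.4 CPM in other adult cells, and 141 CPM in young members against 91.5 CPM in other young cells, but 1 adult member held 832 of its 1013 UMIs in adult members. Without the 5 members with most Ccl8 UMIs in each library its level was 26.0 CPM in adult and 79.4 CPM in young members, under the other base cells in both, with all of the other base cells kept.

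The inflammatory chemokines Ccl3, Ccl4 and Ccl5 were higher as well. Ccl4 stood at 3010.5 CPM in adult members against 833 CPM in the other adult base cells, and 2962 CPM in young members against 1015 CPM in the other young base cells, 3.61-fold (3.53 to 3.70) in the adult library and 2.92-fold (2.87 to 2.96) in the young one. Ccl3 stood at 724 CPM in adult members against 367 CPM in other adult cells, and 575 CPM in young members against 366 CPM in other young cells. Ccl5 stood at 1433 CPM in adult members against 793 CPM in other adult cells, and 1899 CPM in young members against 1148 CPM in other young cells. However, 1 adult member held 775 of the 4077 Ccl5 UMIs in adult members. Without the 5 members with most Ccl5 UMIs in each library its level was 914 CPM in adult and 1685 CPM in young members. With all other base cells kept, that is above them by less than 1.5-fold in both libraries. The chemokines that draw neutrophils missed the limit, with Cxcl2 at 3642 CPM in adult members against 3930.3 CPM in other adult cells, and 4359 CPM in young members against 4611 CPM in other young cells. Ccl24 and Ccl17, ligands of CCR3 and CCR4 known from alternatively activated macrophages, were the lower ones. Ccl17 stood at 48.1 CPM in adult members against 76.4 CPM in other adult cells, and 5.201 CPM in young members against 10.3 CPM in other young cells.

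Of 18 measured cytokines, 6 were higher (Il15, Tnfsf10, Il6, Il27, Il1rn and Csf1) and 1 lower (Tnfsf13b), with a median log2 ratio of 0.60 in the adult and 0.37 in the young library. Il15 (ENSMUSG00000031712, chromosome 8, 82331632 to 82403222), a cytokine that sustains NK and memory CD8 T cells, stood at 56.9 CPM in adult members against 5.97 CPM in the other adult base cells, and 40.6 CPM in young members against 9.32 CPM in the other young base cells, 9.54-fold (7.80 to 11.6) in the adult library and 4.36-fold (3.75 to 5.05) in the young one. Il15ra, its presenting receptor chain, is on no list and was chosen after its values were seen, with 73.4 CPM in adult members against 22.9 CPM in other adult cells, and 64.0 CPM in young members against 25.4 CPM in other young cells. Both parts of the cell-bound cytokine were therefore among the 57 genes. Tnfsf10, the death ligand TRAIL, stood at 22.5 CPM in adult members against 2.06 CPM in other adult cells, and 21.6 CPM in young members against 4.94 CPM in other young cells. Il27, which limits T cell inflammation, stood at 62.9 CPM in adult members against 22.01 CPM in other adult cells, and 54.3 CPM in young members against 32.8 CPM in other young cells. Il1rn, the decoy of the interleukin 1 receptor, stood at 1352 CPM in adult members against 813 CPM in other adult cells, and 1301 CPM in young members against 811 CPM in other young cells. Tnf stood at 369 CPM in adult members against 247 CPM in other adult cells, and 399.7 CPM in young members against 309 CPM in other young cells. Il1b stood at 3204 CPM in adult members against 3275 CPM in other adult cells, and 3038 CPM in young members against 3369 CPM in other young cells. Both were under the limit.

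Of 11 measured checkpoint and costimulatory ligands, Cd40 and Lgals9 were higher and none (0) lower, with a median log2 ratio of 0.25 in the adult and 0.16 in the young library. Cd40, the receptor of the T cell ligand CD154, stood at 193 CPM in adult members against 82.2 CPM in the other adult base cells, and 137 CPM in young members against 74.5 CPM in the other young base cells. Lgals9, a ligand of TIM-3, stood at 235 CPM in adult members against 115 CPM in other adult cells, and 194 CPM in young members against 107 CPM in other young cells. Cd274, which encodes PD-L1, stood at 491 CPM in adult members against 344 CPM in other adult cells, and 549.7 CPM in young members against 444 CPM in other young cells, 1.43-fold in the adult and 1.24-fold in the young library and under the limit.

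Several genes of inflammatory monocytes were higher in members, and several of alternatively activated macrophages were lower. Of 12 measured monocyte genes, 6 were higher and none (0) lower, with a median log2 ratio of 0.48 in the adult and 0.64 in the young library. Ly6c2 stood at 1753 CPM in adult members against 1062 CPM in the other adult base cells, and 2623 CPM in young members against 1630.2 CPM in the other young base cells. Plac8 stood at 4220.0 CPM in adult members against 2389 CPM in other adult cells, and 3760.4 CPM in young members against 2345 CPM in other young cells. Vcan, Cd177 and Ms4a4c, which is also on the antiviral list, were among the higher genes too. Ccr2, the receptor by which monocytes leave the marrow, stood at 310.3 CPM in adult members against 338 CPM in other adult cells, and 214 CPM in young members against 236 CPM in other young cells. Ly6c2 and Plac8 are also known to respond to interferon, so this list is not free of the programme that chose the cells. Members were found in every quartile of base cells by the summed level of the list, with 4.12% of adult and 11.5% of young cells in the lowest quartile and 9.47% of adult and 17.1% of young cells in the highest.

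Of 10 measured genes of alternatively activated macrophages, 0 were higher and 4 lower (Mgl2, Ccl24, Ccl17 and Cdh1), with a median log2 ratio of -0.28 in the adult and -0.13 in the young library. Mgl2, a galactose-binding lectin, stood at 21.1 CPM in adult members against 57.2 CPM in the other adult base cells, and 0.843 CPM in young members against 2.73 CPM in the other young base cells. Cdh1, which encodes E-cadherin, stood at 24.9 CPM in adult members against 47.6 CPM in other adult cells, and 4.08 CPM in young members against 7.78 CPM in other young cells. The arginase gene Arg1 stood at 4797 CPM in adult members against 5818 CPM in other adult cells, and 5036 CPM in young members against 5318 CPM in other young cells and missed the limit. Cells with none of the 5 score transcripts held the highest level of Ccl24 in both libraries.

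Markers of resident or tissue-adapted macrophages showed few calls. Of 12 measured genes of the C1q list, 0 were higher and 1 lower, Cx3cr1, the fractalkine receptor gene, with 13.4 CPM in adult members against 22.8 CPM in other adult cells, and 8.86 CPM in young members against 17.3 CPM in other young cells. C1qa stood at 1168 CPM in adult members against 1444 CPM in other adult cells, and 1170.1 CPM in young members against 1576 CPM in other young cells. Apoe stood at 1554 CPM in adult members against 1656 CPM in other adult cells, and 1651 CPM in young members against 1417 CPM in other young cells. Of 18 measured genes of the inflammatory macrophage list, Acod1, which makes itaconate, was the 1 higher gene, with 566 CPM in adult members against 231 CPM in other adult cells, and 587 CPM in young members against 294 CPM in other young cells, and 0 were lower. Of 16 measured heme and lipid genes, Gpnmb was the 1 higher gene, with 24.6 CPM in adult members against 12.05 CPM in other adult cells, and 30.4 CPM in young members against 15.01 CPM in other young cells, and 0 were lower.

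Metabolic and stress lists gave few calls. Ch25h, which makes the antiviral oxysterol 25-hydroxycholesterol, was the 1 of 13 measured cholesterol genes that was higher, with 103 CPM in adult members against 39.3 CPM in the other adult base cells, and 139.6 CPM in young members against 73.9 CPM in the other young base cells. Scd2, a desaturase, was the 1 lower gene, with 13.4 CPM in adult members against 21.0 CPM in other adult cells, and 6.04 CPM in young members against 13.2 CPM in other young cells. Of 16 measured glycolysis and hypoxia genes, 16 lysosomal genes, 18 phagosome and cross-presentation genes, 11 unfolded protein genes and 8 cell cycle genes, 0 were higher and 0 lower. Of 17 immediate early and heat shock genes, which mark handling stress, Klf2 was the 1 higher gene, with 72.7 CPM in adult members against 44.8 CPM in other adult cells, and 63.1 CPM in young members against 41.5 CPM in other young cells, and 0 were lower. Fos stood at 741 CPM in adult members against 586 CPM in other adult cells, and 1055 CPM in young members against 765 CPM in other young cells.

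**Figure D3:**
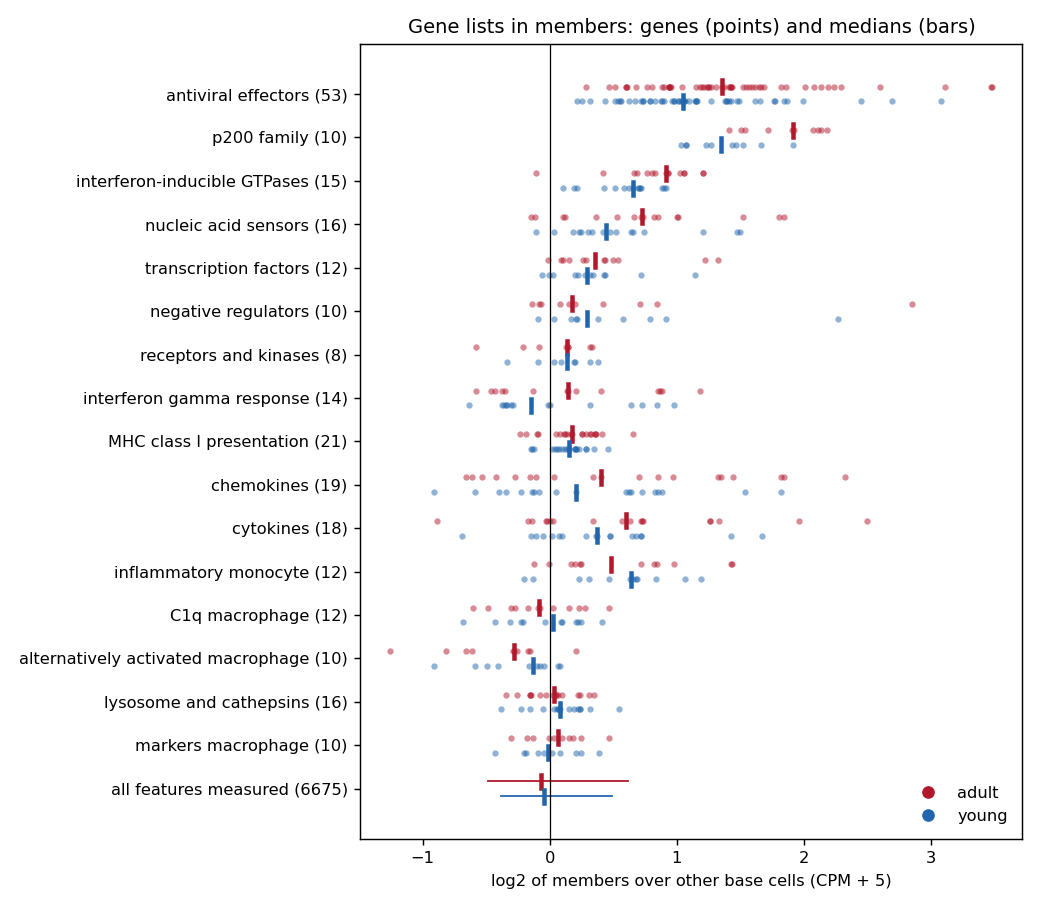
Log2 ratio of members over other base cells for each measured gene of each list, adult library and young library side by side, with a bar at each list's median and, for all measured features, a line over percentiles 5 to 95. The medians of the p200 family (1.91 adult, 1.35 young) and of the antiviral effectors (1.36 adult, 1.05 young) lie furthest above the median of all features (−0.07 adult, −0.04 young).

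The 10 genes furthest down in members had smaller ratios than those furthest up, and none reached 2-fold in both libraries. Cd81, a tetraspanin, stood at 30.6 CPM in adult members against 57.8 CPM in the other adult base cells, and 23.1 CPM in young members against 43.6 CPM in the other young base cells, 0.529-fold (0.422 to 0.655) in the adult library and 0.529-fold (0.448 to 0.620) in the young one. Mt2, a metallothionein, stood at 29.5 CPM in adult members against 71.9 CPM in other adult cells, and 39.8 CPM in young members against 69.3 CPM in other young cells. Its direction turned under 2 of the alternative scores given in the closing part, in the adult library under both and in the young library under 1. H2-DMb2, an MHC class II peptide loader, stood at 29.5 CPM in adult members against 51.5 CPM in other adult cells, and 15.5 CPM in young members against 28.5 CPM in other young cells. Ccl24 stood at 688 CPM in adult members against 1088 CPM in other adult cells, and 17.9 CPM in young members against 37.9 CPM in other young cells. Tmem119, a microglial and macrophage membrane protein, stood at 21.1 CPM in adult members against 39.1 CPM in other adult cells, and 42.3 CPM in young members against 66.3 CPM in other young cells. Gnl3, Uck2, Hmgn1, Mrpl12 and Serf1 were the other 5, of which Gnl3 encodes a nucleolar protein and Mrpl12 a mitochondrial ribosomal protein. Cytosolic ribosomal protein genes, which were not eligible for naming, took 14.7% of UMIs in adult members and 17.8% in the other adult base cells, and 11.2% in young members and 14.7% in the other young base cells.

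Markers of the macrophage lineage were carried by every member. At least 2 of 10 macrophage markers were detected in 279 of 279 adult and 721 of 721 young members, and 0 of the 10 genes were higher or lower than in the other base cells. Csf1r, which was required, stood at 348 CPM in adult members against 376 CPM in other adult cells, and 345 CPM in young members against 379 CPM in other young cells. At least 2 of the 10 markers were also detected in 99.97% of the other adult and 99.87% of the other young base cells. Csf1r was required of every base cell, so these markers do not test the label of a macrophage. They do not set members apart from the other base cells, and the monocyte genes above qualify the label.

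Of the marker lists for other cells, that of neutrophils had the highest summed level. Its 8 genes summed to 629 CPM in adult members against 195 CPM in the other adult cells, and 287 CPM in young members against 161 CPM in the other young cells, and S100a9 and G0s2 were higher. At least 2 of the 8 were detected in 13.3% of adult and 13.5% of young members, against 10.8% of the other adult and 12.02% of the other young base cells. Few cells held much of the level. In adult members 5 cells held 824 of 954 S100a8 UMIs and 5 held 539 of 580 S100a9 UMIs, and in young members 5 cells held 366 of 851 S100a8 UMIs and 5 held 414 of 688 S100a9 UMIs. No gene of this list was at 0, and Ly6g, its defining gene, had 5 UMIs in adult and 1 in young members. S100a8 itself missed the limit. The part of neutrophils, as doublets or free RNA, in the S100a8 and S100a9 levels of members was not tested. Without base cells with 2 or more of these genes the share ratio was 0.483, against 0.489.

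Other lists were low. T cell genes summed to 63.3 CPM in adult members against 76.3 CPM in the other adult cells, and 152 CPM in young members against 125 CPM in the other young cells, most of it Il7r, with Cd3d at 0 in adult members. The 6 NK cell genes summed to 0 CPM in adult members against 6.01 CPM in the other adult cells, and 2.11 CPM in young members against 13.1 CPM in the other young cells, with Ncr1, Klrb1c and Eomes at 0 in all members. B cell genes summed to 3.16 CPM in adult members against 4.86 CPM in the other adult cells, and 3.94 CPM in young members against 5.61 CPM in the other young cells with Pax5 at 0. Plasmacytoid dendritic cells are the best-known makers of type I interferon, and their 6 genes summed to 80.5 CPM in adult members against 45.7 CPM in the other adult cells, and 69.0 CPM in young members against 54.3 CPM in the other young cells. Most of that was Tcf4, with Siglech and Klk1 at 0 in all members. Mature dendritic cell genes summed to 58.0 CPM in adult members against 34.5 CPM in the other adult cells, and 49.9 CPM in young members against 36.5 CPM in the other young cells, and Fscn1 was higher. Conventional dendritic cell genes summed to 11.6 CPM in adult members against 14.2 CPM in the other adult cells, and 5.48 CPM in young members against 8.34 CPM in the other young cells, with Flt3, Xcr1 and Zbtb46 at 0 in adult members. Tumour genes, mCherry included, summed to 26.4 CPM in adult members against 35.8 CPM in the other adult cells, and 22.2 CPM in young members against 18.5 CPM in the other young cells. Endothelial genes summed to 8.43 CPM in adult members against 7.44 CPM in the other adult cells, and 8.996 CPM in young members against 11.3 CPM in the other young cells, with Cldn5, Emcn and Tie1 at 0 in members. Mast cell and erythroid genes each summed to under 1 CPM in members, with 5 of 6 genes of each at 0. The part of these cells in the results was not tested.

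Divided by score, base cells showed which genes followed the 5 score genes in steps. The 5 bins were cells with a score of 0, the lower and the upper part of the remaining cells outside the members, the lower-ranked 500 members and the higher-ranked 500 members. Ifnb1 stood at 2.20, 1.53, 7.89, 32.5 and 113 CPM in these bins of the adult library and at 1.87, 2.21, 11.8, 29.6 and 85.6 CPM in the young one. Isg15 stood at 457, 625, 1490.4, 2939 and 4172 CPM in the adult and 543, 717, 1433, 2819 and 4316 CPM in the young library. Ifnb1 was thus low in the 2 lowest bins and higher in each bin above them, whereas Isg15 was abundant in cells with none of the 5 transcripts and higher in every bin. Irf7 stood at 319, 435, 714, 998 and 1216 CPM in the adult and 673, 750.0, 1013, 1329 and 1465 CPM in the young library. Young cells with a score of 0 thus stood above adult cells with a score of 0 in Irf7. Il15 stood at 3.09, 4.96, 13.6, 31.0 and 78.5 CPM in the adult and 7.48, 7.44, 11.99, 26.7 and 56.8 CPM in the young library. Ccl24 ran the other way, at 1396, 874, 815, 839 and 562 CPM in the adult and 59.3, 37.6, 27.5, 21.5 and 13.7 CPM in the young library. H2-K1 stood at 1479, 1538, 1627, 1558 and 1667 CPM and Csf1r at 385, 368, 370.1, 363 and 336 CPM in the adult library, and neither spanned the range that Ifnb1 or Isg15 did.

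**Figure D4:**
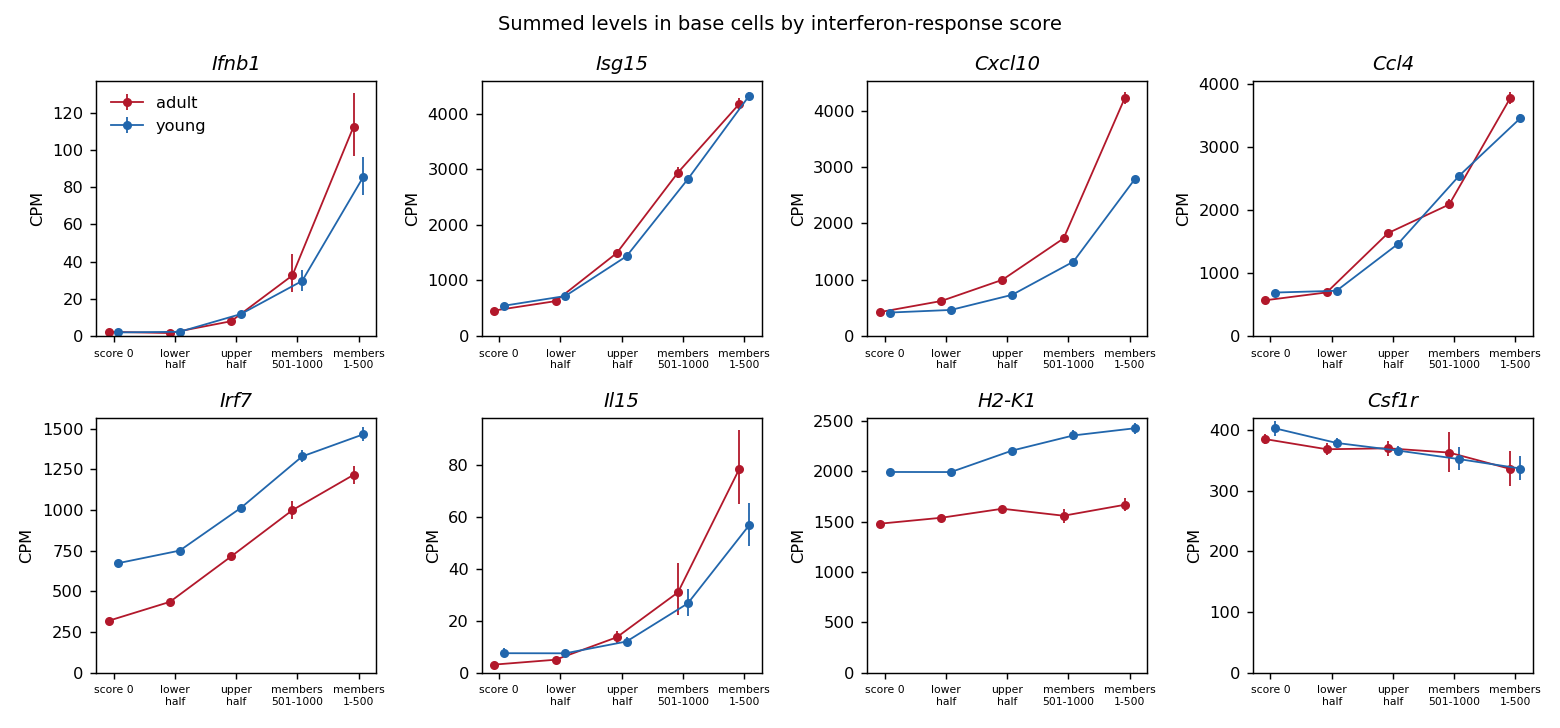
Level (CPM) of 8 genes in 5 bins of base cells ordered by score, for the adult and the young library, with exact Poisson intervals. Ifnb1 stands at 113 CPM (adult) and 85.6 CPM (young) in the top bin and at 2.20 CPM (adult) and 1.87 CPM (young) in cells with a score of 0, while Csf1r lies between 336 and 403 CPM.

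Adult and young members were then compared gene by gene. Members were taken above 1 cutoff in both libraries, so the score genes are more alike in them by construction. Of 2406 compared genes, 17 (0.707%) were at least 2-fold higher in adult members and 28 (1.16%) at least 2-fold lower. Ccl24 (ENSMUSG00000004814, chromosome 5, 135569937 to 135573049), a ligand of CCR3 on eosinophils, stood at 688 CPM in adult members against 17.9 CPM in young members, 38.5-fold (32.2 to 46.5). In the other base cells it stood at 1088 CPM in adults against 37.9 CPM in the young, 28.7-fold (27.4 to 30.0). It was unevenly spread, since 5 members held 42.8% of its UMIs in adult and 82.7% in young members, and without them the levels were 404 CPM in adult and 3.11 CPM in young members. Timp1, an inhibitor of matrix metalloproteinases, stood at 268 CPM in adult members against 40.2 CPM in young members. Fn1, which encodes fibronectin, stood at 773 CPM in adult members against 199.6 CPM in young members. S100a4 stood at 1392 CPM in adult members against 505 CPM in young members. Per cell, its lowest, median and highest values were 0, 12.2 and 55.2 UMIs per 10000 in adult and 0, 3.47 and 31.8 in young members, so the adult median lay above the young one.

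The other genes furthest up in adult members included 2 whose ratio rested on few cells. S100a8 stood at 335 CPM in adult members against 119.6 CPM in young members, 2.80-fold (2.55 to 3.08). Without the 5 members with most of its UMIs in each library it stood at 46.2 in adult and 68.4 CPM in young members, in the opposite direction. Ccl8 stood at 356 CPM in adult members against 141 CPM in young members and without such cells at 26.0 CPM in adult and 79.4 CPM in young members, also in the opposite direction. Chil3, a chitinase-like protein, stood at 436 CPM in adult members against 179 CPM in young members. Gatm, an enzyme that makes the precursor of creatine, stood at 361 CPM in adult members against 138 CPM in young members. Edn1, which encodes endothelin 1, stood at 52.0 CPM in adult members against 18.1 CPM in young members. The linker histone gene Hist1h1c stood at 59.7 CPM in adult members against 19.4 CPM in young members, one of a family whose reads may be shared.

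The genes furthest down in adult members included heme and lipid genes. Hmox1, heme oxygenase 1 (ENSMUSG00000005413, chromosome 8, 75093621 to 75100589), stood at 276 CPM in adult members against 857 CPM in young members, 0.322-fold (0.299 to 0.347). In the other base cells it stood at 272 CPM in adults against 594 CPM in the young. Fabp5, a fatty acid carrier, stood at 316 CPM in adult members against 910.2 CPM in young members. Slc48a1, a heme transporter of phagolysosomes, stood at 46.7 CPM in adult members against 127 CPM in young members. Cd38, an ectoenzyme that consumes NAD, stood at 14.1 CPM in adult members against 50.04 CPM in young members. H2-Q7, a class I gene with close paralogs, stood at 236 CPM in adult members against 615 CPM in young members. Mid1, a ubiquitin ligase on chromosome X, stood at 21.8 CPM in adult members against 87.1 CPM in young members, and Rcbtb2, Cacna1d, Selenom and AC110211.1 were the remaining 4. Each of these 10 genes was also lower in adult than in young other base cells.

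By lists, members followed the age difference of the other base cells in most states. At the limit of 1.5-fold, 239 of 6408 genes (3.73%) were higher and 475 (7.41%) lower in adult members. Of the other base cells, which hold more UMIs and thus narrower intervals, 134 of the same genes (2.09%) were higher and 217 (3.39%) lower in adults. Of 10 measured genes of alternatively activated macrophages, 7 were higher in adult members and none (0) lower, and their median log2 ratio of adult over young was 1.12 in members and 1.23 in the other base cells. Mgl2 stood at 21.1 CPM in adult members against 0.843 CPM in young members. Mrc1, the mannose receptor, stood at 34.4 CPM in adult members against 8.86 CPM in young members. Of 15 measured heme and lipid genes, 1 was higher and 10 were lower, with medians of -0.79 in members and -0.68 in the other base cells. The 1 higher gene, Spp1, which encodes osteopontin, stood at 1001 CPM in adult members against 428 CPM in young members. Of 11 measured cholesterol genes, 5 were higher in adult members and none (0) lower, among them Fdps, with 42.5 CPM in adult members against 13.4 CPM in young members.

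Of 17 measured inflammatory macrophage genes, 0 were higher and 7 lower in adult members, with medians of -0.26 in members and -0.32 in the other base cells. Nos2, inducible nitric oxide synthase, stood at 229 CPM in adult members against 407 CPM in young members. Of 16 lysosomal genes, 0 were higher and 4 lower, namely the cathepsin genes Ctsb, Ctsd and Ctsl and the protease gene Lgmn. Of 21 class I presentation genes, 0 were higher and 3 lower, all of them H2-Q genes. Chemokines went the other way, with 8 of 19 higher and 1 lower in adult members. For the other base cells the counts were 3 higher and 0 lower in adults. The medians of the list were 0.42 in members and 0.08 in the other base cells. The 8 include Ccl8, whose direction turned without its top cells, as given above. Cxcl10 stood at 3099 CPM in adult members against 1999 CPM in young members, 1.55-fold (1.51 to 1.59), while in the other base cells it stood at 614 CPM in adults against 563 CPM in the young, 1.09-fold (1.07 to 1.11). Ccl2 stood at 3238 CPM in adult members against 1732 CPM in young members. Ccl7 stood at 2326 CPM in adult members against 1342 CPM in young members. The 1 lower chemokine was Pf4, with 201 CPM in adult members against 352 CPM in young members.

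The antiviral list differed little by age in members. Of 53 antiviral effectors, Trim30c was higher and Ifi27l2a lower in adult members, with a median log2 ratio of -0.07 in members and -0.33 in the other base cells. In the other base cells, 0 were higher and 12 lower in adults. Isg15 stood at 3612 CPM in adult members against 3512 CPM in young members, and in the other base cells at 734 CPM in adults against 976 CPM in the young. Oasl1 stood at 406 CPM in adult members against 470.3 CPM in young members, and in the other base cells at 62.6 CPM in adults against 125 CPM in the young. Of the p200 family, Ifi203 and Mndal were higher in adult members, with 353 CPM in adult members against 208 CPM in young members for Mndal. The part of the shared cutoff in this was not tested.

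**Figure D5:**
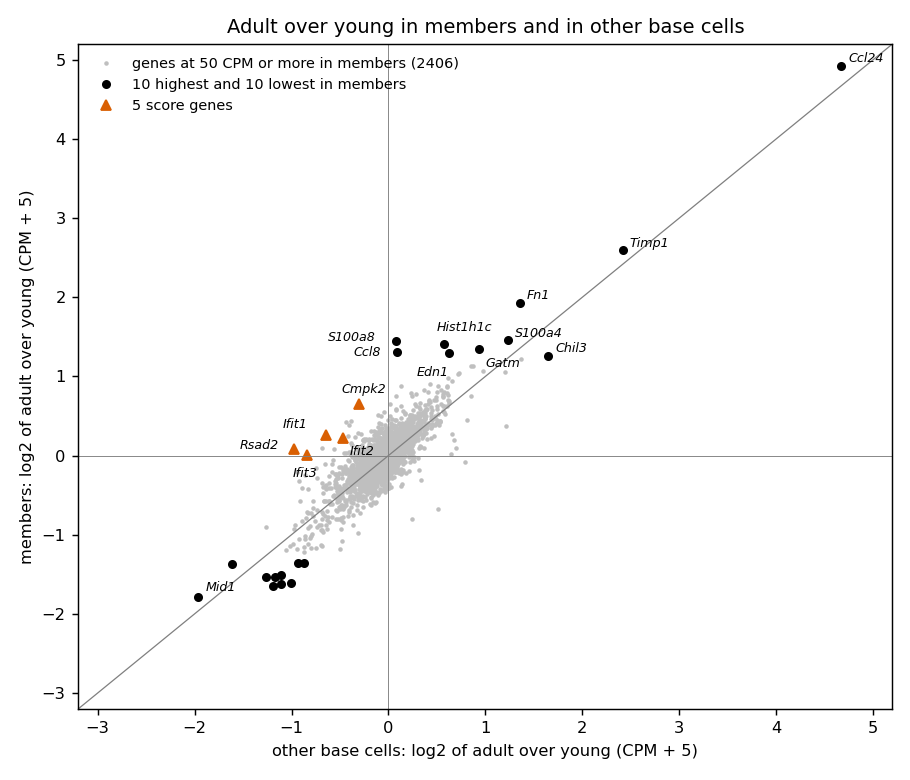
Log2 ratio of adult over young in members (y axis) against the same ratio in the other base cells (x axis) for 2406 genes. The 10 highest and the 10 lowest genes in members are in black and the 5 score genes are triangles. Ccl24 lies far up on both axes, while the score genes lie below 0 on the x axis and close to or above 0 on the y axis.

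The ratio of the 2 age ratios compares the age difference in members with that in the other base cells. Members passed 1 cutoff in both libraries. The other base cells had a median score of 0.102 in the adult and 0.244 in the young library. A gene that follows the score can therefore exceed 1 by the choice of members. The 5 score genes, left out of this ranking, lay between 1.76 (Ifit2) and 2.15 (Cmpk2). The part of the shared cutoff was not tested. Of the ranked genes, the 5 highest were Ifit1bl1, Ifnb1, S100a8, Ccl8 and Il15. Ifnb1 stood at 76.3 CPM in adult members against 55.5 CPM in young members and in the other base cells at 3.15 CPM in adults against 6.07 CPM in the young, a ratio of ratios of 2.65 (2.04 to 3.43). Without the 5 members with most Ifnb1 UMIs in each library its log2 ratio of ratios was −0.20, so its direction turned without those few cells. Il15 stood at 56.9 CPM in adult members against 40.6 CPM in young members and in the other base cells at 5.97 CPM in adults against 9.32 CPM in the young, a ratio of ratios of 2.19 (1.72 to 2.79). The 5 adult members with most Il15 UMIs held 15.4% of them. Without their top cells the log2 ratios of ratios turned to −0.60 for S100a8 and −1.53 for Ccl8.

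The 5 lowest were Egln3, Pf4, Acp5, Hspa1a and Cd72. Egln3, a prolyl hydroxylase induced by hypoxia, stood at 31.3 CPM in adult members against 52.7 CPM in young members and in the other base cells at 69.4 CPM in adults against 47.1 CPM in the young, a ratio of ratios of 0.403 (0.318 to 0.511). Pf4, platelet factor 4, stood at 201 CPM in adult members against 352 CPM in young members and in the other base cells at 270.5 CPM in adults against 227 CPM in the young. Acp5, the tartrate-resistant acid phosphatase, stood at 47.4 CPM in adult members against 50.6 CPM in young members and in the other base cells at 80.5 CPM in adults against 44.3 CPM in the young. Cd72, an inhibitory receptor, was lower in adults in both sets, with 51.7 CPM in adult members against 124 CPM in young members and with 77.3 CPM in adults against 111 CPM in the young in the other base cells. Hspa1a, a heat shock gene with a near-identical copy, stood at 91.0 CPM in adult members against 69.2 CPM in young members and in the other base cells at 139 CPM in adults against 56.8 CPM in the young.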

How the data were processed

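Raw UMI counts per gene and barcode were used as the authors deposited them, in 2 sparse matrices of 31054 features with no normalization. The labels name the 10x Genomics 3′ v2 kit. Counting used Cell Ranger 3.0.2 and build mm10, per the submitters' processing notes. The gene annotation, the counting strand and the barcode filter are not stated in these sources, and each deposited barcode held at least 500 UMIs. Ages were taken from the sample titles.

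Filtering and scoring followed the rule in the opening of the results, which kept 4265 of 6279 adult and 5390 of 7558 young barcodes. Steps ran in Python 3.11.15 with numpy 2.4.6, scipy 1.17.1, pandas 2.3.3 and matplotlib 3.10.9. No cells were clustered and no doublet caller was run. UMIs were summed per library and cell set and divided by the sum to give CPM, and log2 ratios used a pseudocount of 5 CPM. With 1 library per age and members chosen by readout, no p-values were computed. Standard errors from counts were used for the log-scale intervals alone. The conditional binomial ratio intervals were checked on simulated counts.

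The named genes are the 15 furthest up and 10 furthest down in members (ranked on the library with the smaller difference), the 10 furthest in each direction by age, the 5 furthest in each direction by ratio of ratios with an interval that excludes 1, the 5 score genes, and 2 to 6 genes per list. Haemoglobin, immunoglobulin, mitochondrial and ribosomal protein genes were not eligible. The members, the 26 gene lists, the 12 marker lists and the rules were chosen with earlier results of these data known. Features that share a symbol (71) were left out of the gene comparisons. Some listed genes are not reported here. Alternatives changed 1 choice at a time: the number of members, the genes and form of the score, the filters, depth, pseudocount and minimum level, and, chosen after seeing the data, leaving out shared barcodes, cells with neutrophil genes or the 5 members with most UMIs of a gene.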

Additional observations from a re-analysis of the deposited data

Results flagged for a closer look

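Cells outside the base also reached the lowest member score. Among cells with fewer than 2 mCherry UMIs and no Csf1r UMI, which the comparisons above do not use, 86 of 877 adult cells (9.81%, exact binomial interval 7.92 to 11.97) and 211 of 1030 young cells (20.5%, 18.1 to 23.1) did so. Among cells with at least 2 mCherry UMIs, 16 of 632 adult cells (2.53%, 1.45 to 4.08) and 42 of 670 young cells (6.27%, 4.55 to 8.38) did so. Each of these shares was lower in the adult than in the young library, as was the share of members in the base. What these cells are was not tested.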

How the results depend on the processing

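With the 500 highest scores the ratio of member shares, adult over young, was 0.606, and over all alternatives it lay between 0.468 and that value. The 57 genes 2-fold higher in members became 26 with the 2000 highest scores and 37 with a score of Rsad2 and Cmpk2. The 0 genes 2-fold lower became 1 with the 500 highest scores (Ccl17), 1 with 0 mCherry UMIs (Ccl24), 1 without the 6% of barcodes with most UMIs (Mt2), 1 at a pseudocount of 1 CPM (Mgl2) and 1 when each cell weighed the same (Mt2). By age, 17 genes higher became 41 with no minimum level, and 28 lower became 51 with none and 18 with the 500 highest scores in each library. More genes were tested with no minimum. For the other changes the cause was not tested.

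On the log2 scale, Mt2 in members over others turned to 0.44 in adults with a score as share of UMIs, and with a score of Rsad2 and Cmpk2 to 0.51 in adults and 0.026 in the young. Adult over young, S100a8 turned to −0.76 with the 500 highest scores and −0.52 without the 5 members with most of its UMIs. Ccl8 turned to −1.35 with the 500 highest scores, −1.28 thinned, −0.24 with a score as share of UMIs and −1.44 without such members. The ratio of ratios turned to −0.20 for Ifnb1 without such members. For S100a8 it turned to −1.06 with the 500 highest scores and −0.60 without such members. For Ccl8 it turned to −1.66 with the 500 highest scores, −1.83 thinned, −0.52 with a score as share of UMIs, −0.19 with a score of Rsad2 and Cmpk2 and −1.53 without such members. For these turns the cause was not tested, other than the removal of the named cells itself.

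The other 83 of 94 alternatives for counts and shares stayed within 1.5 times or the interval. Of 1440 alternative values for the 90 gene results, 1012 lay within the counting interval of the value as reported (its bounds brought to the same log2 scale with 5 CPM added), 411 outside it without turning and 17 turned. No paired analysis was possible because each age is 1 library and no library could be left out. At 279 adult members, genes under 10 CPM rest on few UMIs, and single cells can set much of a level, as for Ccl8, S100a8, S100a9, Ifnb1 and Ccl5.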

Other observations

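Members with an Ifnb1 UMI were set beside those without one, a split chosen after values were seen and with 23 adult and 72 young cells on one side. Carriers stood higher in several chemokine, cytokine and stress genes. Ccl4, an inflammatory chemokine, stood at 11735 CPM in adult carriers against 2227 CPM in the other adult members, and 10641 CPM in young carriers against 2193 CPM in the other young members, 5.27-fold (5.03 to 5.51) in the adult and 4.85-fold (4.71 to 4.99) in the young library. Its median per cell was 58.0 UMIs per 10000 in adult carriers against 6.34 in the other adult members, and 94.7 in young carriers against 9.31 in the other young members, above the other members in both libraries. Ccl3 stood at 2008 CPM in adult carriers against 608 CPM in the other adult members, and 1345 CPM in young carriers against 497 CPM in the other young members. Tnf stood at 964 CPM in adult carriers against 316 CPM in the other adult members, and 823 CPM in young carriers against 357 CPM in the other young members. Bbc3, the cell death gene that encodes PUMA, stood at 115 CPM in carriers against 27.2 CPM in the other members of the adult library, and 125 CPM in carriers against 32.6 CPM in the other members of the young one. Ppp1r15a, a regulator of translation under stress that is known to be needed for interferon beta production in mouse cells, stood at 831 CPM in carriers against 267 CPM in the other adult members, and 1024 CPM in carriers against 326 CPM in the other young members.

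Interferon targets went both ways. Rsad2, Ifit3 and Ifit1 are score genes, and members were chosen by the score. A cell with much of a score gene could enter with less of the others. The part of this choice in the differences of Rsad2, Ifit3, Ifit1 and the median score was not tested. Oasl1, Cxcl10 and Usp18 are not score genes. Rsad2 stood at 1949 CPM in adult carriers against 1342 CPM in the other adult members, and 1799 CPM in young carriers against 1265 CPM in the other young members. Oasl1 stood at 635 CPM in adult carriers against 385 CPM in the other adult members, and 593 CPM in young carriers against 458 CPM in the other young members. Cxcl10 stood at 3509 CPM in adult carriers against 3063 CPM in the other adult members, and 3098 CPM in young carriers against 1888 CPM in the other young members, and all 3 were higher in carriers in each library with intervals of the ratio above 1. The median score was 1.63 in adult carriers against 1.43 in the other adult members, and 1.41 in young carriers against 1.32 in the other young members. Usp18 stood at 149 CPM in adult carriers against 248 CPM in the other adult members, and 142 CPM in young carriers against 209 CPM in the other young members. Ifit3 stood at 384 CPM in adult carriers against 543 CPM in the other adult members, and 426 CPM in young carriers against 538 CPM in the other young members. Usp18 and Ifit3 were lower in carriers in each library. Carriers had medians of 8621 UMIs in the adult and 8655 in the young library, against 8976 in the other adult and 9316 in the other young members. With carriers taken at 2 or more Ifnb1 UMIs (15 adult and 45 young cells), Ccl4 was 6.87-fold higher in the adult and 6.48-fold higher in the young library. Ifit1 stood at 618 CPM in adult carriers against 553 CPM in the other adult members, and 778 CPM in young carriers against 436 CPM in the other young members, a ratio whose interval included 1 in the adult library alone, 1.12-fold (0.937 to 1.33) in the adult and 1.79-fold (1.62 to 1.97) in the young library.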
